A study of Homo sapiens with 10 samples.

Results

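The broadest regions bound by tagged ZMYND8 included 598 that had no counterpart in the list made with an antibody to the protein itself. They were selected on 2 measured values, a width of at least 1000 bp in the FLAG-ZMYND8 peak list and the absence of any ZMYND8 peak that overlapped them by 1 bp or more, on chromosomes 1 to 22 and X. The list held 63690 peaks, of which 63688 lay on these chromosomes and 1147 were 1000 bp or wider. The 598 wide FLAG-only peaks were therefore 0.939% of the list and 52.1% of its wide peaks, and the other 549 wide peaks overlapped a ZMYND8 peak. The ZMYND8 list was shorter, with 15085 peaks on these chromosomes. Of the narrower FLAG-ZMYND8 peaks, 56301 had no ZMYND8 partner and 6240 had one. Lack of a partner was thus usual in the FLAG-ZMYND8 list and less frequent among its wide peaks. Width and overlap are given here as a description, because they chose the peaks.

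ChIP-seq sequences the DNA that is recovered with a protein or a modified histone from crosslinked chromatin, which was cut with micrococcal nuclease here. The series comprised 10 samples of HEK293, an established human embryonic kidney line, with 2 replicates each of FLAG-ZMYND8, ZMYND8, H3K14ac and H3K27ac ChIP, 1 input for the FLAG ChIP and 1 input for the others. In the FLAG-ZMYND8 ChIP the antibody was directed at the tag of 3xFLAG-ZMYND8, whose expression 10 nM doxycycline had switched on in a Flp-In T-REx HEK293 line, so this list describes a tagged protein expressed from a transgene. For the ZMYND8 ChIP an antibody to ZMYND8 was used, on cells that the labels describe as carrying 3xFLAG-ZMYND8 of full length or its N228F mutant, which alters the bromodomain, without saying which. Each target has 1 list without replicate columns or read counts, so the spread between replicates and the depth are unknown and a peak list offers no marker with which to check the cell line. The score is 1 in every row, and a list holds only sites past the authors' calling limit, so that a missing ZMYND8 peak does not show missing ZMYND8. The intervals below are 95% intervals (Wilson for a share, Newcombe for a difference in percentage points) that cover the counting error of peaks only, and neighbouring peaks are not independent.

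ZMYND8 is a chromatin reader in which a PHD finger, a bromodomain and a PWWP domain lie next to each other and together contact the tail of histone H3, in particular when lysine 14 is acetylated. It associates with the NuRD and CoREST corepressors and with the H3K4 demethylase KDM5C, and it is found at promoters and enhancers. Promoters of many genes lie in CpG islands, stretches rich in G, C and the dinucleotide CpG that are usually free of DNA methylation and carry acetylated histones. A peak of 1000 bp or more spans the length of several nucleosomes. Whether the signal ran through it without a break is unknown here, since the lists give only positions and widths.

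The sequences below come from the widest FLAG-only peaks and show the part of each that is richest in CpG, not the composition of the whole peak. Each is the 200 bp of the peak with the most CpG sites that hold no annotated coding or untranslated base, from the GRCh37 (hg19) reference, plus strand, 5′ to 3′, with CpG in capitals. The first 3 come from the 3 widest of the peaks that lay within 3 kb of a protein-coding gene start, and they hold 22, 27 and 19 CpG sites.
DDIT4, chr10:74033400-74033599: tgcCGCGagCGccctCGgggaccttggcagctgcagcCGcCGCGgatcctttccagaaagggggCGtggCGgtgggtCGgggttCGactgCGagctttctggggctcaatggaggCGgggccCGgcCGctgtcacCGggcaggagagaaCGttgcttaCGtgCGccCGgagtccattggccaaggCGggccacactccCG
STC2, chr5:172755499-172755698: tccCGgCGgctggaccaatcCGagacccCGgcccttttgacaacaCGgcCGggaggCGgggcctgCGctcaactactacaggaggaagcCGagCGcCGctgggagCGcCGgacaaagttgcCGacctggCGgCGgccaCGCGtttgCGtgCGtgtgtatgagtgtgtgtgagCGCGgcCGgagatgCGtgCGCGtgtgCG
HOXC9, chr12:54391231-54391430: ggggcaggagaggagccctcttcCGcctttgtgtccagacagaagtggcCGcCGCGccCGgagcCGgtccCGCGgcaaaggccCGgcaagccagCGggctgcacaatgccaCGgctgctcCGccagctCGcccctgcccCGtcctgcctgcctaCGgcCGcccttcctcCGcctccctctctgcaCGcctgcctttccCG

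The next 3 come from the 3 widest peaks with no gene start within 3 kb, named by the gene whose start is nearest, with 25, 7 and 11 CpG sites.
DNAJB12, chr10:74079384-74079583: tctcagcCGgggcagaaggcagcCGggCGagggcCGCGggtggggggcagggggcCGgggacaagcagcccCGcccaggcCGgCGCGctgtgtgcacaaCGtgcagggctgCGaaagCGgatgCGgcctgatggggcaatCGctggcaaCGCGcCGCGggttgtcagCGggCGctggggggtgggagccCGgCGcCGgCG
INHBE, chr12:57848410-57848609: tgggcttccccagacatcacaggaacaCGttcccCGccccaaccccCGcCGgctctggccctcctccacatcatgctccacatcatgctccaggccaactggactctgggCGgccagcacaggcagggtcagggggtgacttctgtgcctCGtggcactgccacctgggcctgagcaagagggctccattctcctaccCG
SLC7A5, chr16:87890416-87890615: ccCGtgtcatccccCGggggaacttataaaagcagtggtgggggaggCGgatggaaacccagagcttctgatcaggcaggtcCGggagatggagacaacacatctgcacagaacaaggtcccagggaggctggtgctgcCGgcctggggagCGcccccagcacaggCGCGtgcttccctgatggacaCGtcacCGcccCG
The window near DNAJB12, between genes, was as dense in CpG as those at gene starts, and its GC content of 77.5% was the highest of the 6. These windows were picked for their CpG sites. Over the whole peak the GC content was 58.8% near DNAJB12 and 56.1% at DDIT4. The windows in INHBE and SLC7A5, both within genes, had fewer CpG sites at 65.5 and 64.5% GC.

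The 598 peaks covered 848 kb, which was 5.08% of the 16.7 Mb summed over the FLAG-ZMYND8 list. Their median width was 1250.5 bp, with quartiles of 1102.25 and 1564.5 bp, so most lay close to the limit that chose them. The wide peaks with a ZMYND8 partner had a median of 1237 bp and reached 5277 bp. Of the FLAG-only peaks, 59 were 2000 bp or wider, 10 were 3000 bp or wider and the widest was 5751 bp. At the limit itself, 1 peak inside was 1000 bp wide, at the start of CDC123, which encodes a factor for assembly of the initiation factor eIF2. A further 6 were 1001 bp wide, among them those near REEP3 and GNAS, the last encoding a G protein alpha subunit. Just outside, 1 FLAG-only peak was 999 bp wide, upstream of HOXB13, and 4 were 998 bp wide, among them those near SEPTIN9 and BAZ2A. FLAG-only peaks numbered 98 from 950 to 999 bp and 76 from 1000 to 1049 bp.

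The widest FLAG-only peak, at chr10:74032021-74037771, took in the whole of DDIT4 (ENSG00000168209.4, plus strand, 74033678 to 74035794), which encodes a stress-induced inhibitor of mTORC1. It was also the widest peak of the FLAG-ZMYND8 list. One further peak held a whole protein-coding gene, UFSP1, which is 995 bp long, under a peak of 1437 bp. Within 15 kb of the DDIT4 peak, and counting that peak, the FLAG-ZMYND8 list had 16 peaks with a summed width of 14502 bp. The ZMYND8 list had 1 of 189 bp.

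The second in rank, 5312 bp at chr10:74079039-74084350, lay on the same arm between genes, 33213 bp downstream of the start of DNAJB12, whose product is a co-chaperone of the endoplasmic reticulum. Its surroundings held 19 FLAG-ZMYND8 peaks, counting the peak itself, and 3 ZMYND8 peaks. The third, 3715 bp at chr5:172754145-172757859, covered the start of STC2, the gene of a secreted glycoprotein hormone, with its midpoint 552 bp upstream. Here 8 FLAG-ZMYND8 peaks, counting the wide one, stood against 1 ZMYND8 peak of 189 bp that was 3656 bp away. Of the amino acid stress response list, 2 of 26 genes (7.69%, 2.14 to 24.1%) had a wide FLAG-only peak within 3 kb of the start, DDIT4 and STC2, against 1.99% of all protein-coding genes. A wide peak with a partner was also found at 2 of the 26.

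The fourth, 3442 bp at chr12:57847922-57851363, lay in an intron of INHBE, which encodes an inhibin beta subunit, and a wide FLAG-only peak of 2102 bp followed it in GLI1, the Hedgehog transcription factor gene next to it. In the HOXC cluster a peak of 3398 bp at chr12:54389191-54392588 lay in an intron of HOXC9 and 320 bp upstream of the start of the antisense gene HOXC-AS2. The peak of 3331 bp at chr6:32935766-32939096 was nearest to HLA-DMA, which encodes a chaperone of MHC class II peptide loading, but it also covered the start of BRD2, a gene of the BET bromodomain family. Starts of neighbouring genes on opposite strands shared this peak, so it cannot be given to one of them.

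SLC7A5, which encodes a transporter of large neutral amino acids, held a peak of 3245 bp in an intron 13436 bp into the gene. Its surroundings held 18 FLAG-ZMYND8 peaks, counting the peak itself, and 6 ZMYND8 peaks. In contrast, the peaks of 3168 bp at NRP1 and of 3083 bp at SLIT2, genes of a semaphorin and VEGF coreceptor and of an axon guidance ligand, stood nearly alone. The FLAG-ZMYND8 list had 3 and 2 peaks within 15 kb of them, counting the peak itself, and the ZMYND8 list had none. The nearest ZMYND8 peaks were 47955 and 444674 bp away. The 12 widest were completed by HOXB4 (3010 bp), an intron of SMAD7, the gene of an inhibitory SMAD (2781 bp), and DNAJC22, a J-domain protein gene (2780 bp).

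**Figure D1:**
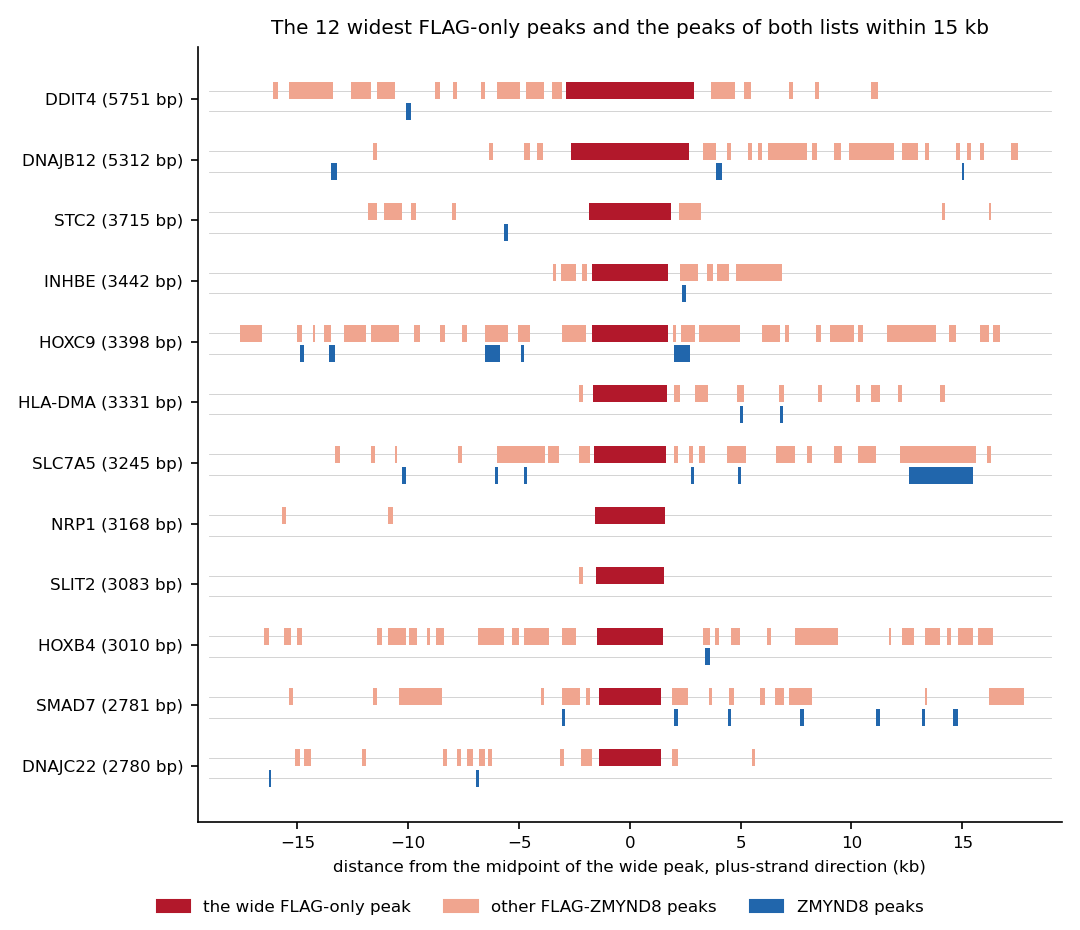
Each row shows one of the 12 widest FLAG-only peaks (dark red), the other FLAG-ZMYND8 peaks (light red, upper lane) and the ZMYND8 peaks (blue, lower lane) within 15 kb, against the distance from the midpoint of the wide peak in kb along the plus strand. Most stand among many FLAG-ZMYND8 peaks, such as the 16 at DDIT4 and 25 at HOXC9, whereas NRP1 and SLIT2 have 3 and 2 and no ZMYND8 peak. These counts include the wide peak itself.

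Wide FLAG-only peaks lay mostly at gene starts. The midpoints of 431 of the 598 (72.1%, 68.3 to 75.5%) fell within 3 kb of the 5′ end of an annotated gene, against 40.5% of all FLAG-ZMYND8 peaks and 36.5% of the 56301 narrower FLAG-only peaks, a difference of 35.6 points (31.8 to 39.0). Wide peaks with a ZMYND8 partner gave 72.9%, so that the FLAG-only peaks differed from them by -0.786 points with an interval from -5.93 to 4.4. The 6240 narrower peaks with a ZMYND8 partner gave 71.0%, so a share of this size was not particular to wide peaks. The nearest start was that of a protein-coding gene for 287 of the 431, of a lncRNA for 124 and of another kind of gene for 20. How often the start itself was covered differed between the wide classes.

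A base of the peak fell on a gene start for 36.5% of the wide FLAG-only peaks, compared with 51.5% of those with a partner, 3.29% of the narrower FLAG-only peaks and 5.44% of the whole list. The difference between the 2 wide classes was -15.1 points (-20.7 to -9.36), and for protein-coding starts it was -13.4 points (-18.7 to -8.1). A narrow peak covers a start less often because of its width, which chose the peaks. Part of the contrast with the narrower peaks and the whole list is therefore built in. The widths of the 2 wide classes were similar, with medians of 1250.5 and 1237 bp. Of the 357 with a midpoint within 3 kb of a protein-coding start, 262 (73.4%, 68.6 to 77.7%) lay downstream of it, and the median position was 585 bp downstream. For the 323 wide peaks with a partner, 70.9% lay downstream with a median of 307 bp. Among the 214 FLAG-only peaks of this set without a base on a protein-coding start, 170 (79.4%, 73.5 to 84.3%) lay downstream, as did 94 of 118 (79.7%, 71.5 to 85.9%) with a partner. Both classes thus lay mostly downstream, the FLAG-only peaks farther so in the median.

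**Figure D2:**
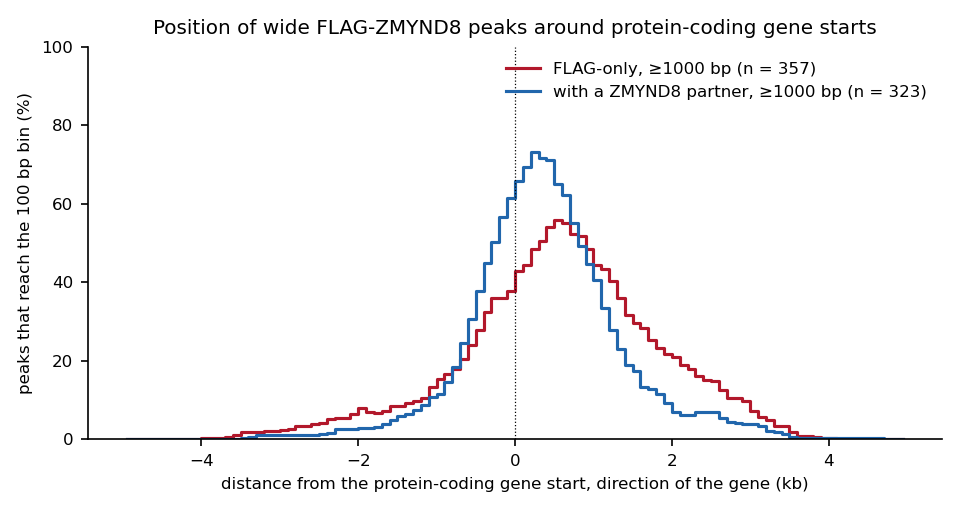
The share of wide FLAG-ZMYND8 peaks that reach each 100 bp bin is plotted against the distance from the nearest protein-coding gene start in kb, in the direction of the gene, for 357 FLAG-only peaks (red) and 323 with a ZMYND8 partner (blue). The FLAG-only curve is lower near the start, with its top of 56.0% from 500 to 600 bp against 73.1% from 200 to 300 bp, and higher at distances beyond about 1 kb on either side.

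In the developmental transcription factor list, the widest such peak lay downstream of the start at 12 of the 13 genes that had one, in the immediate early list at 8 of 10 and in the HOX list at 7 of 10. The midpoint lay 1080 bp into HOXB4, 1615 bp into DLX2, 1058 bp into ID3, 1470 bp into JUN and 1367 bp into HES1. It lay upstream at EGR1 (1370 bp), a factor gene induced by growth signals, at DUSP6 (1781 bp), the gene of an ERK phosphatase, at LHX1 (845 bp) and at HOXA5, HOXA7 and HOXB5 (1781, 2961 and 1083 bp). Over all 598 peaks, 284 midpoints (47.5%) lay in introns, 94 in untranslated exons and 53 in coding exons. A further 60 lay in other annotated exons, neither coding nor untranslated, and 107 between genes. The intron share was 56.8% in the whole list and 40.8% among wide peaks with a partner, from which the FLAG-only peaks differed by 6.69 points (0.936 to 12.4). By bases, 46.9% of the sequence under the peaks was intronic, 14.5% untranslated, 10.8% other exon, 8.59% coding and 19.3% between genes. Inside a gene, of any kind, lay 82.1% of the midpoints against 77.0% of the whole list.

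The share at gene starts depended on which starts were counted. Of the 167 peaks without a gene start within 3 kb, 71 (42.5%, 35.3 to 50.1%) lay within 3 kb of the start of an annotated transcript, an internal start of a longer gene. The peak of 2660 bp in GLI3, the gene of a Hedgehog pathway transcription factor, is an example, as its midpoint lay 26922 bp from the gene start and 31 bp from a transcript start, with 77.0% GC in its central 300 bp. Peaks in SMAD7 and INHBE had transcript starts 635 bp and 113 bp away, while those near DNAJB12 and in SLC7A5 had none within 3 kb.

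**Figure D3:**
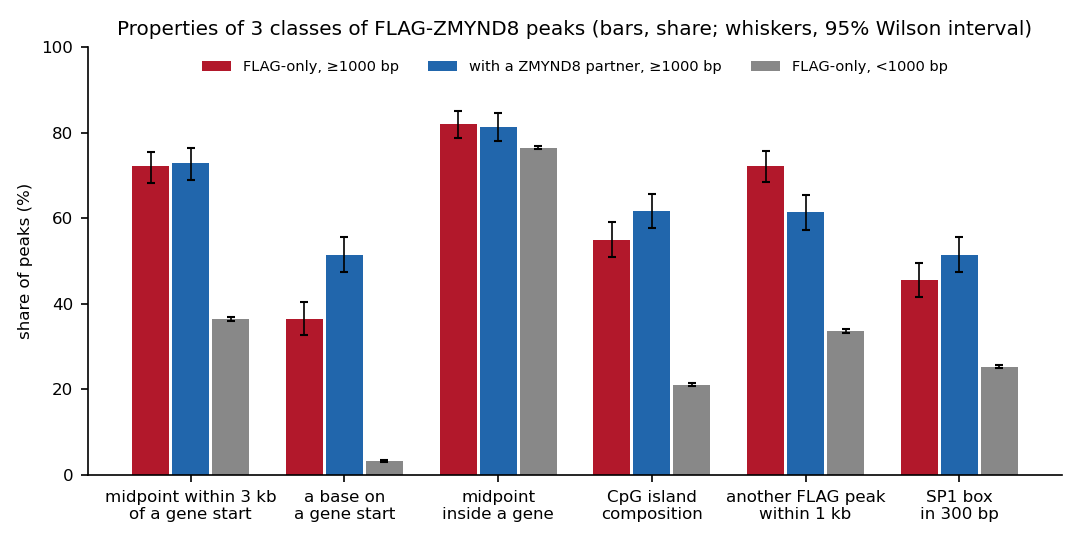
Bars give the share in percent of 598 wide FLAG-only peaks (red), 549 wide peaks with a ZMYND8 partner (blue) and 56301 narrower FLAG-only peaks (grey) with each property, and whiskers its 95% Wilson interval. The wide classes are close within 3 kb of gene starts (72.1 and 72.9%) but stand apart for a base on the start (36.5 and 51.5%) and for another FLAG peak within 1 kb (72.2 and 61.4%).

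The composition of the peaks was mixed. The median GC content of the central 300 bp was 63.5%, against 65.3% for wide peaks with a partner and 56.0% for narrower FLAG-only peaks. CpG island composition, taken as at least 50% GC and a ratio of observed to expected CpG above 0.6 in these 300 bp, was met by 329 peaks (55.0%, 51.0 to 59.0%). The shares were 61.7% of the wide peaks with a partner, 21.1% of the narrower FLAG-only peaks and 25.9% of the whole list, so the FLAG-only peaks lay below the other wide peaks by -6.73 points (-12.4 to -1.02). Narrower peaks with a partner gave 63.3%, close to the wide ones. The median ratio of observed to expected CpG in the wide FLAG-only peaks was 0.642, and its quartiles of 0.347 and 0.82 lay on both sides of the criterion.

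The 329 peaks of CpG island composition and the other 269 differed in several measures. Of the former, 282 (85.7%, 81.5 to 89.1%) lay within 3 kb of a gene start and 48.6% had a base on one, while the latter gave 55.4% (49.4 to 61.2%) and 21.6%. Between genes lay 9.42% of the former and 28.3% of the latter. Another FLAG-ZMYND8 peak was found within 1 kb of 66.3% (61.0 to 71.2%) and 79.6% (74.3 to 83.9%). The other peaks were also somewhat wider, with a median of 1318 bp against 1222 bp. Among the 59 peaks of 2000 bp or more, 44.1% (32.2 to 56.7%) had CpG island composition in the central 300 bp, against 61.4% (55.8 to 66.8%) of those below 1250 bp. Over the whole peak the shares were 40.7% (29.1 to 53.4%) and 62.1% (56.5 to 67.4%). A part of a wide peak can still be dense in CpG, as the printed windows of DDIT4 and STC2 show, which lie in peaks outside the criterion at their centres.

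Distance to the ZMYND8 list, which the choice of peaks also used and which is therefore a description, split along the same line. Over all 598 peaks the median distance to the nearest ZMYND8 peak was 8190.5 bp. It was 21623 bp for peaks of CpG island composition and 5330 bp for the others. The narrower FLAG-only peaks lay farther from the ZMYND8 list, with a median of 17387 bp. A ZMYND8 peak lay within 100 bp of 9 of the wide FLAG-only peaks, within 1000 bp of 79, within 10 kb of 324 and within 50 kb of 467. Among the 9 nearest was a peak at IGF2BP1, an RNA-binding protein gene, which ended 9 bp from a ZMYND8 peak. The FLAG-only name thus covers peaks beside a ZMYND8 site as well as peaks far from any.

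At 131 peaks (21.9%, 18.8 to 25.4%) no ZMYND8 peak lay within 50 kb. Such distances were not particular to wide peaks, as the upper quartile of the narrower FLAG-only peaks was 54247 bp. Of the 131 peaks, 114 (87.0%, 80.2 to 91.7%) had CpG island composition and 111 (84.7%) lay within 3 kb of a gene start, with a base on the start at 57.3%. The 324 peaks with a ZMYND8 peak within 10 kb gave 42.3%, 65.1% and 28.4%. The isolated peaks had few FLAG-ZMYND8 neighbours too, with a median of 2 within 15 kb, and 25 had none, while the 324 had a median of 7 and 8 had none.

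The widest of the isolated peaks, chosen after their values were seen, were at SLIT2 (3083 bp), FOXP1, a forkhead factor gene (2707 bp), GLI3 (2660 bp), SH3RF3 (2616 bp), SINHCAF, which encodes a subunit of the SIN3-HDAC corepressor (2124 bp), TNIK, a kinase of the WNT pathway (2119 bp), NRG2, a neuregulin gene (2093 bp), and CAMK2D (2012 bp). All 8 had CpG island composition, but a narrower isolated peak at DSCAML1 (1853 bp) did not, with a ratio of 0.34. CAMK2D, a calmodulin-dependent kinase gene, had no other FLAG-ZMYND8 peak within 15 kb, and its nearest was 93922 bp away. The longest distance to a ZMYND8 peak was 1368601 bp, from a peak of 1480 bp at GULP1, an engulfment adaptor gene, followed by 1211791 bp from one of 1128 bp upstream of DUSP6.

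**Figure D4:**
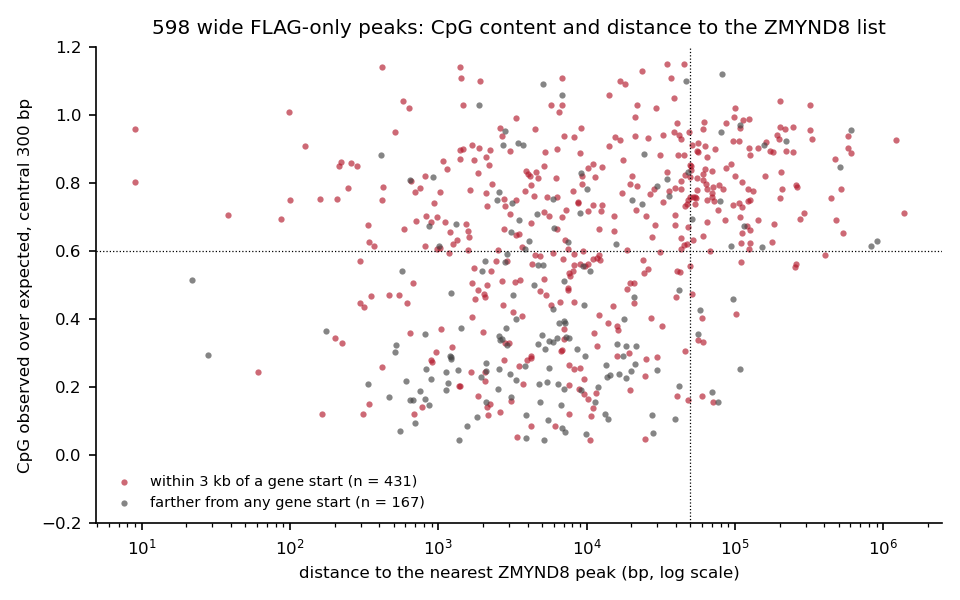
Each point is one of the 598 wide FLAG-only peaks, with its distance to the nearest ZMYND8 peak in bp on a log axis and the ratio of observed to expected CpG in its central 300 bp, red within 3 kb of a gene start (431) and grey farther away (167). Dotted lines mark a ratio of 0.6 and 50 kb. Of the 131 peaks beyond 50 kb, 114 had CpG island composition.

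The peaks lay close to other FLAG-ZMYND8 peaks. The nearest was 474 bp away in the median, against 599 bp for wide peaks with a partner and 2261 bp for narrower FLAG-only peaks. Another FLAG-ZMYND8 peak lay within 1 kb of 72.2% (68.5 to 75.7%) of them, as for 61.4% of the wide peaks with a partner, 33.6% of the narrower FLAG-only ones and 36.7% of the list, and the difference from the first was 10.9 points (5.41 to 16.2). For narrower peaks with a partner the share was 58.9%. Within 15 kb of the wide FLAG-only peaks the median number of other FLAG-ZMYND8 peaks was 5, with quartiles of 2 and 9 and a highest count of 28. It was 4 for wide peaks with a partner and 3 for the narrower ones. The way a run of signal is split into peaks bears on these counts, and joining FLAG-ZMYND8 peaks less than 200 bp apart gave 699 wide FLAG-only peaks, of which 68.2% had another within 1 kb.

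Some wide FLAG-only peaks stood in groups. With gaps of up to 10 kb, 101 of the 598 fell into 43 groups of 2 or more. The largest held 6 peaks each and lay in HOX clusters. One spanned 25.5 kb of chromosome 12 from HOXC10 to HOXC8 (54379206 to 54404723) and the other 26.9 kb of chromosome 17 around HOXB4 and HOXB5 (46647777 to 46674726). A further group of 3 stood at HOXB8. The DDIT4 peak belonged to a group of 4 over 20.2 kb, and the peak near DNAJB12 to a group of 3 over 14.6 kb. Groups of 3 were also found at UNC5B, ZFP36L2 and ZIC5/ZIC2, genes of a netrin receptor, of an mRNA decay factor and of zinc finger factors of neural development.

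Protein-coding genes with 3 or more of the peaks between their ends numbered 8, and genes that overlap each other share peaks. HOXB3 and the antisense gene HOXB-AS3 held the same 6 peaks with a summed width of 10489 bp, and HOXB3 had 40 FLAG-ZMYND8 and 5 ZMYND8 peaks in 56.0 kb. HOXC6, whose longest transcript runs through much of its cluster, held 5, all also within a read-through gene model (ENSG00000273049) with 6. UNC5B held 5 wide FLAG-only peaks among 32 FLAG-ZMYND8 peaks in 90.3 kb. LINC01605, a lncRNA gene of chromosome 8, held 4 among 56. Outside the rule for named genes, SMAD7, SMAD3, HOXB7 and GSE1 held 3 each, and GSE1, with 134 FLAG-ZMYND8 peaks in 507 kb, had by far the most peaks of these genes.

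Of 20098 protein-coding genes, 399 (1.99%) had the midpoint of a wide FLAG-only peak within 3 kb of the start, which is 3.42% of the 11670 with any FLAG-ZMYND8 peak there. Wide peaks with a partner were found at 383 genes, and 6 genes had both kinds. A ZMYND8 peak was within the same 3 kb at 91 of the 399 (22.8%), against 34.1% of all protein-coding genes and 50.6% of those with any FLAG-ZMYND8 peak, a count that the choice of peaks without a partner lowers. The 18 gene lists below were chosen with results of these data known, and their shares are descriptions.

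HOX genes, which set positional identity along the body axis, had the highest share of the 18 lists. Of 39, 10 (25.6%, 14.6 to 41.1%) had a wide FLAG-only peak, and 37 had some FLAG-ZMYND8 peak. The latter held for 11670 of all 20098 protein-coding genes. A wide peak with a partner was found at 5 of the 39, against 1.91% of all protein-coding genes. A high share in this list was thus not particular to the FLAG-only peaks. The widest FLAG-only peaks were at HOXC9 (3398 bp), HOXB4 (3010 bp), HOXC8 (2284 bp) and HOXB5 (1813 bp). Neighbouring HOX genes lie close together, and the 10 genes are not independent. The starts of 4 of them lay under a peak. Families of other developmental transcription factors had 13 of 159 (8.18%, 4.84 to 13.5%), led by DLX2 (2751 bp), FOXP1 (2707 bp), FOXB1 (2528 bp) and TLX1 (1814 bp), factors of forebrain, lung and heart, diencephalon and spleen development. Of these 159 genes, 5 had a wide peak with a partner.

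Immediate early genes, which respond to growth factors and stress within minutes, had nearly the same share as the HOX genes, 10 of 41 (24.4%, 13.8 to 39.3%). The widest of them were at ID3 (2078 bp), an inhibitor of basic helix-loop-helix factors, at ZFP36L2 (1998 bp), at JUN (1616 bp), an AP-1 subunit, and at HES1 (1609 bp), a repressor downstream of Notch. Nearly all of these genes, 40 of 41, had some FLAG-ZMYND8 peak, which 11670 of all 20098 protein-coding genes had. A wide peak with a partner was found at 4 of 41, against 1.91% of all protein-coding genes. As in the HOX list, a high share was thus not particular to the FLAG-only peaks. Only 1 of the 10 starts lay under a wide FLAG-only peak, that of CCN1, where the midpoint was 34 bp from the start. Genes of the WNT, Notch, Hedgehog and TGF-beta pathways had 7 of 54 (13.0%, 6.42 to 24.4%), with GLI1 (2102 bp), SMAD3 (1701 bp), SMAD7 (1611 bp) and HES1. None of these 54 had a wide peak with a partner, which 1.91% of all protein-coding genes had. At that share a list of 54 genes would hold few, so their absence cannot be told apart from the background.

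Lists of housekeeping genes had smaller shares than these. Mitochondrial ribosomal protein genes (77), replication-dependent histone genes (66), proteasome subunit genes (48) and aminoacyl tRNA synthetase genes (35) had none, while 72.7, 59.1, 68.8 and 88.6% of them had some FLAG-ZMYND8 peak. Of all 20098 protein-coding genes, 11670 had some FLAG-ZMYND8 peak, a share close to that of the histone genes. With a background of 1.99%, lists of this size would hold few, and the upper interval bounds were 4.75, 5.5, 7.41 and 9.89%. Cytosolic ribosomal protein genes had 5 of 86 (5.81%, 2.51 to 12.9%), led by RPS2 (2101 bp) and RPS15 (2074 bp), and numbered zinc finger genes 3 of 554 (0.542%, 0.184 to 1.58%), namely ZNF503 (2671 bp), ZNF593 and ZNF827. The SR and hnRNP splicing factors had 1 of 49 (TRA2B), the chaperones 2 of 84 (DNAJC22 and HSPA4L), the small nucleolar RNA host genes 2 of 31 (SNHG9 and SNHG22) and the cyclins and their kinases 1 of 40 (CDK18). The peak counted for SNHG9, 2334 bp upstream of its start, is the one counted for RPS2.

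Genes of the chromatin machinery around ZMYND8 are few in number, and so are the counts. None of 26 genes for NuRD subunits and other ZMYND8 partners had a wide FLAG-only peak (upper bound 12.9%), while 22 had some FLAG-ZMYND8 peak. The latter held for 11670 of all 20098 protein-coding genes. Of the histone acetyltransferase list, 1 of 22 genes had a wide FLAG-only peak (4.55%, 0.807 to 21.8%, against 1.99% of all protein-coding genes), JADE2, with 2 peaks. Of the bromodomain and elongation genes 2 of 26 did (7.69%, 2.14 to 24.1%, against 1.99% of all protein-coding genes), BRD2 through the peak shared with HLA-DMA and ELL2, an elongation factor of RNA polymerase II, through a peak of 1222 bp.

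**Figure D5:**
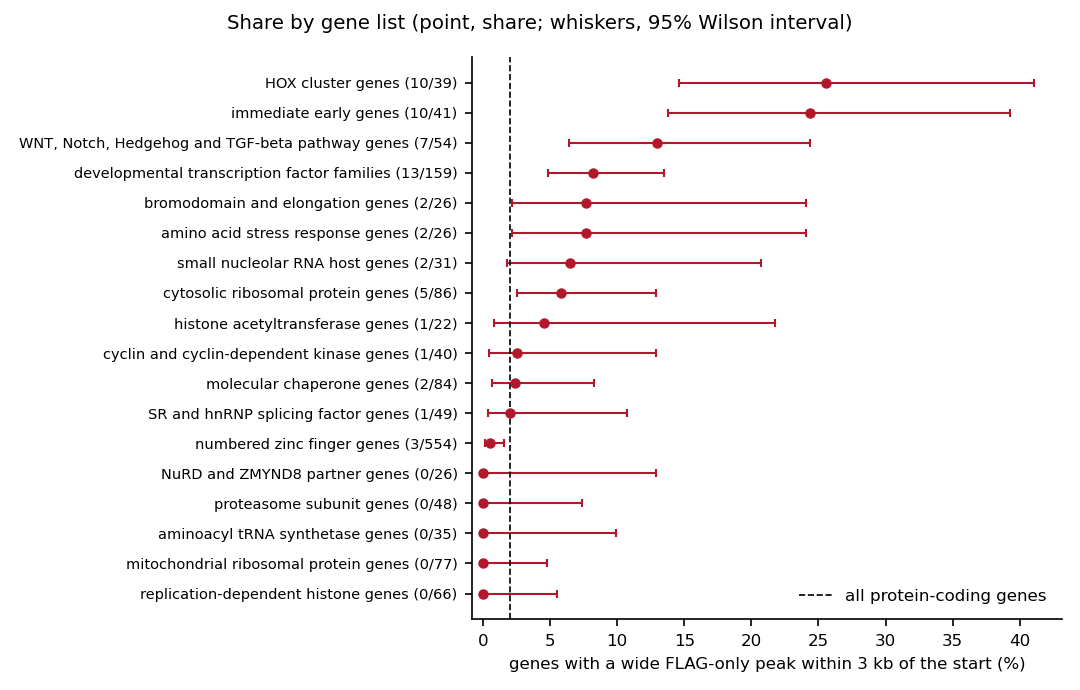
Points give the share in percent of the genes of each list with the midpoint of a wide FLAG-only peak within 3 kb of the start, with its 95% Wilson interval, and labels give the counts. The dashed line marks 1.99%, the share of all protein-coding genes. HOX genes (25.6%) and immediate early genes (24.4%) lie farthest to the right, and 5 lists are at 0.

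Short motifs were searched by exact letters on both strands in the central 300 bp. The SP1 box, GGGCGG, was in 45.5% (41.5 to 49.5%) of the wide FLAG-only peaks, 51.5% of those with a partner, 25.2% of the narrower ones and 27.9% of all FLAG-ZMYND8 peaks. The ETS core, CCGGAA, was in 13.2% (10.7 to 16.2%), against 15.7, 6.78 and 7.77%. Narrower peaks with a partner held the SP1 box in 48.5% and the ETS core in 15.5%, close to the wide classes. Both motifs contain a CpG. The E-box, CACGTG, also contains a CpG but did not follow this order. It was in 5.02% (3.54 to 7.07%) of the wide FLAG-only peaks and 9.65% of those with a partner, a difference of -4.64 points (-7.77 to -1.63), with 5.54% of the narrower peaks and 5.96% of the whole list. A match is a run of letters, not a binding site. The CCAAT box, CCAAT, was in 18.7 and 21.8% of the wide FLAG-only peaks and of the list, and the AP-1 site, TGANTCA, in 5.35 and 6.07%. In the printed windows, the CCAAT box occurred once each at DDIT4 and STC2 and the SP1 box in the other 4, with 2 matches in INHBE. TATAAA, which was in 3.51% of the wide FLAG-only peaks and 5.14% of the list, occurred once, in SLC7A5. The YY1 core, AAGATGGC, was in 0.836% of the wide FLAG-only peaks, 2.55% of those with a partner and 1.49% of the list, and the difference between the wide classes was -1.71 points (-3.47 to -0.206) on 5 and 14 peaks. The remaining 3 motifs searched, the CRE TGACGTCA, the NRF1 motif GCGCATGC and GGAAGGAA, were in 0.836, 1.34 and 3.34% of the peaks and in 0.367, 1.63 and 3.51% of the list. The CRE and the NRF1 motif contain a CpG as well.

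The pattern at gene starts was seen across chromosomes. In 21 of 23 chromosomes the share at gene starts was higher for the wide FLAG-only peaks than for the narrower ones, the exceptions being chromosomes 21 and X with 1 and 6 peaks. On the 13 chromosomes with 20 or more, it ranged from 58.7% on chromosome 10 to 89.3% on chromosome 3. It was above that of the wide peaks with a partner on 7 of these 13, so neither wide class was higher throughout. Chromosome 1 held the most, 85, followed by chromosome 17 with 59 and chromosomes 10 and 12 with 46 each. Chromosomes 10 and 12 carry 6 of the 12 widest, namely those at DDIT4, DNAJB12, NRP1, INHBE, HOXC9 and DNAJC22. On chromosome 22, 27 wide peaks were FLAG-only and 9 had a partner, while on chromosome 8 the counts were 21 and 39.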

How the data were processed

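Per the paper's methods and the labels, the reads had been aligned with BWA-MEM to the hg19 build, and HOMER had been used for profiles. How peaks were called and replicates combined is not given in the sources used here. The authors deposited 1 peak list of 6 columns without header per target, and the score column that they deposited is 1 in every row, so the data are positions and widths. H3K14ac, H3K27ac and input samples were not used here.

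The wide FLAG-only peaks and all lists of genes and motifs were chosen with earlier results of these data known. A gene start was the first base of a gene in GENCODE (release 44, GRCh37), with 63827 in use and 20098 protein-coding among them. Distances run from peak midpoints to starts and between peak edges, and a midpoint on several parts of genes counted as coding exon, untranslated exon, other exon, then intron. Soft-masked repeats were not measured, since the reference is in capitals. No test was run, because there is 1 list per target and width and overlap chose the peaks. Depth is unknown. Of the widest peaks, 12 overall and 6 away from gene starts were named, with up to 4 per gene list, up to 6 genes with 3 or more peaks, and the peaks at the limit. One of these is not reported here. Overlap, distance and interval functions were tested on simulated data. Software was Python 3.11.15, pandas 2.3.3, numpy 2.4.6, scipy 1.17.1 and matplotlib 3.10.9.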

Additional observations from a re-analysis of the deposited data

How the results depend on the processing

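No paired analysis was possible because neither list has replicate columns, which also prevented leaving replicates out. Of 28 alternative values over 5 results, 17 stayed within the interval of the reported value (or, for the number of peaks, within 1.5 times) and 11 moved. The number of wide FLAG-only peaks was 1087 with a limit of 800 bp and 178 with 1500 bp, and the median GC content with the latter was 62.0%. The share at gene starts was 48.7% within 1 kb, 28.9% within 500 bp, 36.5% for a base on the start, 59.7% with protein-coding starts and 83.9% with transcript starts, all by construction of the window or the set of starts. It stayed between 68.5 and 72.3% under the other width limits, without the peaks that had a ZMYND8 peak within 1 kb, and after joining. Inside protein-coding genes alone lay 71.7%. A FLAG-ZMYND8 neighbour was found for 88.6% within 5 kb, and for 68.2% after joining peaks less than 200 bp apart, which removes the nearest neighbours. The limit of the lists is their calling threshold, and the unknown depth leaves the absence of a ZMYND8 peak without a bound.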
